A study of Homo sapiens with 6 samples.

Results

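Activins are secreted dimers of inhibin beta subunits that bind a type II receptor, which recruits and phosphorylates a type I receptor; the signal passes to SMAD2 and SMAD3, and the extracellular proteins follistatin and follistatin-like 3 hold the ligand away from its receptors. A separate group of secreted proteins, GDF15, FGF21 and stanniocalcin 2, is released by stressed cells, and their genes, with that of the activin E subunit, are known targets of the integrated stress response, in which phosphorylation of eIF2 raises translation of the transcription factor ATF4. The genes described here are 10 of the 62700 gene IDs in the deposited tables. They are the activin subunit genes INHBA, INHBB and INHBE, the inhibitor genes FST and FSTL3, the receptor genes ACVR1B and ACVR2B, and the hormone genes GDF15, FGF21 and STC2. They were picked by symbol, and INHBE and STC2 because they had been seen to rise with leptin, so the differences of INHBE and STC2 between the groups are given as a description, with no p-value, and counting them as past a threshold says no more than that choice did.

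RNA was sequenced from OVCAR8 cells, an established human ovarian carcinoma line with a genotype given as WT, in 3 leptin libraries and 3 control libraries. All cells were starved of serum overnight. The leptin group was then given leptin, a hormone made by fat cells, at 100 ng/ml and sequenced after 24 h; the control group was given PBS. The sources used here do not say how long after PBS the controls were harvested, nor whether replicates were separate cultures, and the spread on which the p-values rest may therefore be technical. Levels of a gene are given as CPM (counts scaled to a common library total by TMM), levels of different genes are set beside each other as RPKM (CPM per kilobase of exon), and errors are SD over 3 libraries unless called SE.

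The libraries held 15609425 to 18577775 counts on genes. The ovarian and epithelial markers PAX8, SOX17, KRT8 and KRT18 were detected in every library, with PAX8 at 5522 to 6323 counts with leptin and 5704 to 6997 in controls, while MUC16 and MSLN had 12 counts or fewer in each library. Of the markers tested, KRT19 alone passed, lower with leptin. Of the 6 immune markers, PTPRC and CD3E had 0 counts throughout, and CD14, CD68 and LYZ had 3 or fewer in each library. CSF1R had 80, 57 and 42 counts in leptin replicates 1, 2 and 3, against 30, 39 and 39 in controls (edgeR adjusted p = 0.130). Summed over its list, the level of 6 immune markers was 2.61 to 4.79 CPM with leptin and 1.85 to 2.52 CPM in controls, that of 4 endothelial markers 1.74 to 2.998 CPM with leptin and 3.16 to 3.98 CPM in controls, and that of 3 adipocyte markers 0.713 to 2.25 CPM with leptin and 0.42 to 1.18 CPM in controls. The 6 fibroblast markers, mostly COL1A1, summed to 357 to 520 CPM with leptin and 460 to 656 CPM in controls. The part of these levels in the results was not tested. Leptin replicate 1 stood apart: on the first principal component (49.6% of the variance) it lay at -2.15, against 46.3 and 39.6 for leptin replicates 2 and 3 and -31.0 to -23.6 for the controls. Changes also followed GC content, with 536 genes higher and 18 lower in the richest of 5 equal groups of tested genes by GC, and 23 higher and 223 lower in the poorest.

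Of the 10 genes, 9 had counts and 8 passed the filter on low counts. Among these 8, 3 lay past the threshold, an adjusted p under 0.05 over all 15685 tested genes in the quasi-likelihood test of edgeR: INHBA, lower with leptin, and INHBE and STC2, which were chosen as higher. The other 5 missed it. Over all tested genes 9.81% passed, 5.71% higher and 4.09% lower, that is 896 higher and 642 lower. That balance turned to 736 higher and 768 lower with library totals as the scaling and to 426 higher and 442 lower with the GC trend removed. The leptin and control libraries did not overlap for 5 of the 8, 4 higher and 1 lower, against 32.2% of all tested genes (16% higher, 16.2% lower). The median log2 fold change of the 8 was 0.87, beside 0.0057 for all tested genes. Since the choice of members used this contrast, nothing is read from these counts. Without leptin replicate 1, 6 members passed (5 higher, 1 lower), beside 29.6% of all tested genes; without Control replicate 2, 1 passed (2.25%), and without leptin replicate 2 (4.84%), leptin replicate 3 (1.66%), Control replicate 1 (0.711%) or Control replicate 3 (1.05%), 0. With the GC trend removed 2 members passed (5.53%), and with a replicate block added to that, 3 (6.01%); with the block alone 3 passed (8.31%). DESeq2 called 5 (14.6%), limma-voom 1 (8.45%) and a threshold of 0.01 left 0 (1.75%). Relative log expression scaling gave 3 (9.84%), library totals 3 (9.59%), no filter on low counts 4 (7.42%) and a mean CPM of at least 1 gave 4 (10.7%).

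**Figure D1:**
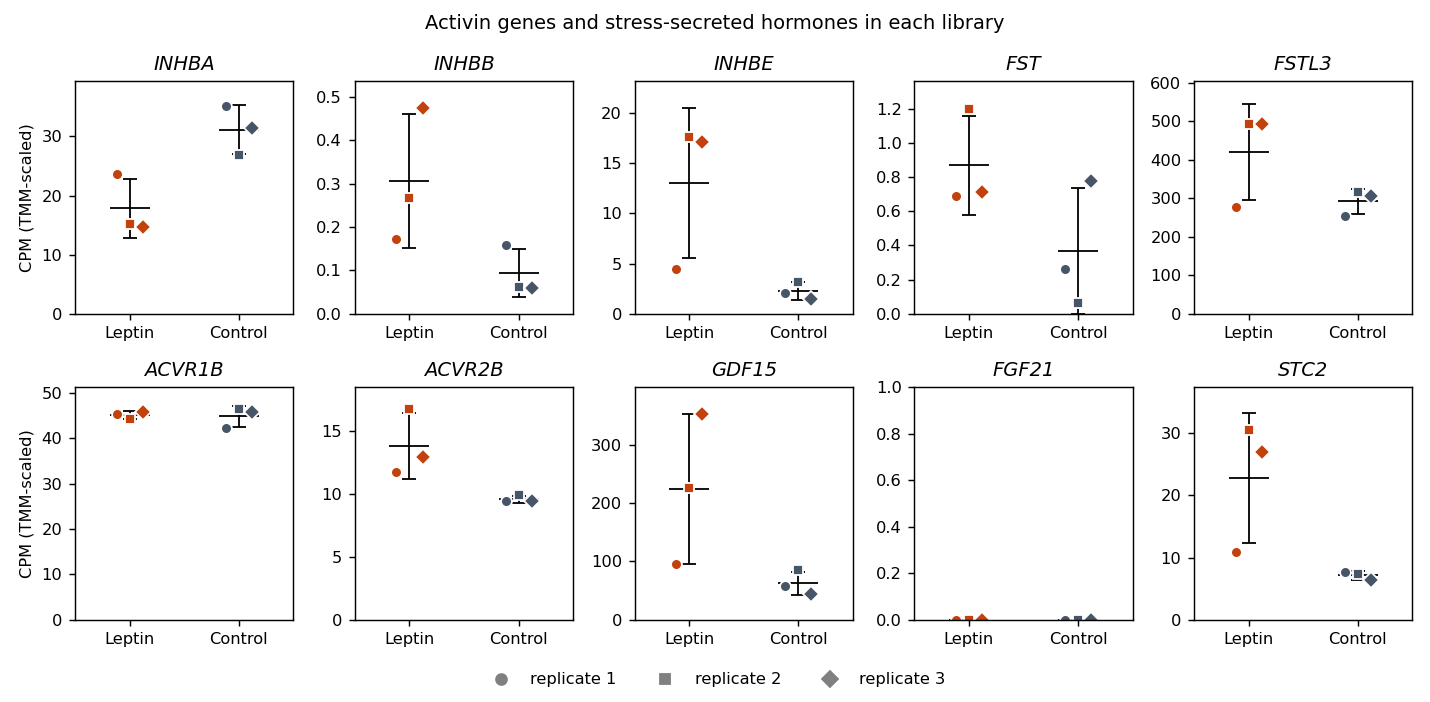
CPM of each of the 10 genes in the 3 leptin libraries (left in each panel) and the 3 control libraries (right); marker shape gives the replicate number, and the bar and whiskers give mean ± SD. INHBE, GDF15, STC2 and ACVR2B lie higher in all leptin libraries than in any control, INHBA lies lower, leptin replicate 1 lies nearest the controls for these 5 genes, and FGF21 is at 0 throughout.

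The subunit genes INHBA and INHBE moved in opposite directions. INHBE, which encodes the beta E subunit of activin E, a protein known chiefly from liver, had 77, 264 and 288 counts in leptin replicates 1, 2 and 3, against 40, 51 and 24 in control replicates 1, 2 and 3. This was 4.44, 17.6 and 17.1 CPM with leptin and 2.11, 3.17 and 1.44 CPM in controls. Every leptin library was above every control, but leptin replicate 1 stood far closer to the controls than to leptin replicates 2 and 3. The fitted change was 5.82-fold (log2 fold change 2.54 ± 0.52, SE), and 15 of 15685 tested genes had a larger one. It was 7.72-fold without leptin replicate 1 and at least 4.80-fold without any other single library, and after removal of the GC trend its log2 fold change was 2.50 ± 0.54 (SE).

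INHBA, whose beta A subunit forms activin A and is the subunit most often studied in ovarian tumours, had 23.6, 15.2 and 14.6 CPM in leptin replicates 1, 2 and 3, against 35.2, 26.8 and 31.5 CPM in the controls. The groups did not overlap, and the means were 17.8 ± 5.04 CPM with leptin and 31.2 ± 4.17 CPM in controls (n = 3 each). INHBA fell, with a log2 fold change of -0.80 ± 0.19 (SE; edgeR adjusted p = 0.0250). That call was kept in 1 of 6 leave-outs of a library, the one without leptin replicate 1. The edgeR adjusted p reached 0.143 without Control replicate 1 and was 0.0567 with the GC trend removed, where the log2 fold change was -0.67 ± 0.18 (SE); its transcript has 39.1% GC, in the poorest of the 5 GC groups.

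INHBB, the beta B subunit gene, was barely detected, with 3, 4 and 8 counts in leptin replicates 1, 2 and 3 and 3, 1 and 1 counts in the controls, and it was not tested. A count of 0 is compatible with up to 3 counts, equal to 0.173 to 0.200 CPM in leptin libraries and 0.158 to 0.186 CPM in controls. The gene of the alpha subunit that makes inhibins, INHA, had 1 to 10 counts with leptin and 0 to 4 in controls, and INHBC, a further beta subunit gene, had 0 to 2 counts with leptin and 0 to 5 in controls; neither was tested.

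Within each library, RPKM of the beta subunits gives their balance without any scaling between libraries. INHBE made up 33.4%, 75.1% and 74.6% of the summed RPKM of INHBA, INHBB and INHBE in leptin replicates 1, 2 and 3, against 13.9%, 24.2% and 11.01% in the controls. INHBA made up 65.4%, 23.8% and 23.4% with leptin and 85.1%, 75.4% and 88.6% in controls. INHBA was thus the more abundant subunit transcript per length in all controls and in leptin replicate 1, and INHBE in leptin replicates 2 and 3. The summed RPKM itself was 4.36, 7.71 and 7.53 with leptin and 4.99, 4.30 and 4.29 in controls. These shares depend on the exon lengths in the tables, 8284 bases for INHBA, 3206 for INHBB and 3046 for INHBE, which sum all annotated exons of a gene.

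**Figure D2:**
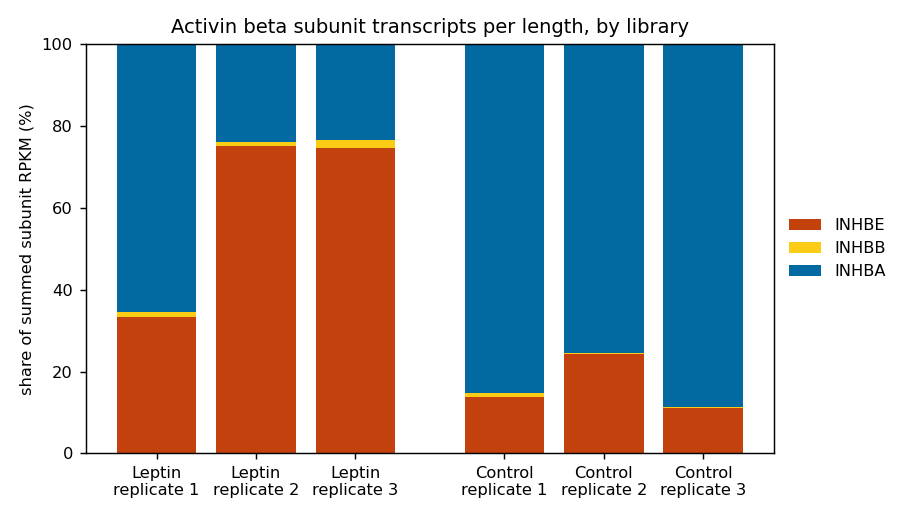
Share of each beta subunit gene in the summed RPKM of INHBA, INHBB and INHBE, as stacked bars that add to 100%, for leptin replicates 1 to 3 (left) and control replicates 1 to 3 (right). INHBE takes 33.4% to 75.1% with leptin and 11.01% to 24.2% in controls; INHBB stays under 2% in every bar.

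INHBE lies on chr12:57452323-57459280 (hg38, plus strand), where 499 of its 3046 exon bases (16.4%) are shared with ENSG00000287200, a gene on the opposite strand. Pairs over exons of both genes were left out of both counts, and without the strand option pairs from either gene cannot be told apart in exons of just the other. ENSG00000287200 had 14, 16 and 18 counts with leptin and 7, 4 and 6 in controls. INHBE itself had 77, 264 and 288 counts with leptin and 40, 51 and 24 in controls. The counts of ENSG00000287200 were thus few beside INHBE in leptin replicates 2 and 3, and a larger part in leptin replicate 1 and the controls. INHBA lies on chr7:41667168-41705834 (minus strand) and shares 248 of 8284 exon bases with INHBA-AS1, which had 1 count or none with leptin and 1 to 6 in controls. The other 8 genes share no exon base with another gene.

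Of the inhibitors, FSTL3 was by far the more abundant. FSTL3, which encodes follistatin-like 3, a secreted glycoprotein that binds activins, had 276, 492 and 492 CPM in leptin replicates 1, 2 and 3, against 254, 315 and 305 CPM in controls. Leptin replicate 1 lay inside the control range and the other leptin libraries above it. FSTL3 missed the threshold, at a log2 fold change of 0.53 ± 0.20 (SE; edgeR adjusted p = 0.115). It passed without leptin replicate 1 (log2 fold change 0.75, edgeR adjusted p = 5.88e-05, a fit in which 29.6% of 16101 genes passed) with DESeq2 (adjusted p = 0.0444) and with no filter on low counts (edgeR adjusted p = 0.00138), while with the GC trend removed it was 0.12 ± 0.15 (SE; edgeR adjusted p = 0.681); FSTL3 has 64.4% GC, in the richest group. FST, the follistatin gene, had 12, 18 and 12 counts with leptin and 5, 1 and 13 in controls, overlapping groups with a log2 fold change of 1.21 ± 0.67 (SE; edgeR adjusted p = 0.269). Without Control replicate 3 it was 2.31 (edgeR adjusted p = 0.165). Per length, FSTL3 stood at 31.9, 88.3 and 91.9 times INHBA with leptin and 19.7, 32.1 and 26.5 times in controls. These ratios still hold the GC trend, as FSTL3 is in the richest GC group and INHBA in the poorest. With that trend removed the log2 fold changes were 0.12 for FSTL3 and -0.67 for INHBA.

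The receptor genes differed less between the groups. ACVR1B, a type I receptor of activins, had 45.3, 44.2 and 45.8 CPM with leptin and 42.2, 46.5 and 45.9 CPM in controls. The groups overlapped, with a log2 fold change of 0.0075 ± 0.10 (SE; edgeR adjusted p = 0.975), whose sign changed under several alternatives. ACVR2B, a type II receptor shared with other ligands of the TGF-beta family, had 11.7, 16.7 and 12.9 CPM with leptin and 9.38, 9.88 and 9.42 CPM in controls. All leptin libraries were higher, but ACVR2B missed the threshold (log2 fold change 0.53 ± 0.17, SE; edgeR adjusted p = 0.0701); without leptin replicate 1 it passed (0.62, edgeR adjusted p = 0.00859). ACVR2A, the other type II receptor gene, had 9.04 ± 1.93 CPM with leptin and 8.54 ± 2.32 CPM in controls, a log2 fold change of 0.08 ± 0.23 (SE; edgeR adjusted p = 0.853). Per length, ACVR1B stood at 7.34 to 10.7 times ACVR2B with leptin and 12.5 to 13.5 times in controls.

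The rest of the pathway was read from 36 further genes of ligands, receptors, processing enzymes, SMADs, their regulators and targets, of which 24 were tested. None passed edgeR's test, beside 9.81% of all tested genes. An unadjusted edgeR p under 0.05 was reached by 5 (2 higher, 3 lower). The share of all tested genes at that level was not computed, so nothing is read from that count. The list was written with earlier results of these data known. DESeq2 called 2 (1 higher, 1 lower; 14.6% of all genes) and limma-voom 0 (8.45% of all genes). The median log2 fold change of the list was -0.0027. SMAD2, which carries the activin signal to the nucleus, had 116 ± 6.99 CPM with leptin and 122 ± 3.34 CPM in controls (log2 fold change -0.08 ± 0.10, SE; edgeR adjusted p = 0.650). SMAD3, its partner, had 64.0 ± 9.67 CPM with leptin and 72.1 ± 5.79 CPM in controls, with an edgeR adjusted p of 0.424. The shared SMAD4 had 83.0 ± 5.30 CPM with leptin and 74.7 ± 2.39 CPM in controls (edgeR adjusted p = 0.368). BAMBI, a pseudoreceptor that blunts signalling in this family and was named after its values were seen, had 14.5, 32.6 and 41.3 CPM in leptin replicates 1, 2 and 3, against 13.3, 14.9 and 12.9 CPM in controls. Leptin replicate 1 lay among the controls, and BAMBI missed the threshold (log2 fold change 1.10 ± 0.32, SE; edgeR adjusted p = 0.0587). Without leptin replicate 1, 4 of the genes passed, 2 in each direction, beside 29.6% of all tested genes; BAMBI was among them (log2 fold change 1.42, edgeR adjusted p = 1.79e-06).

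**Figure D3:**
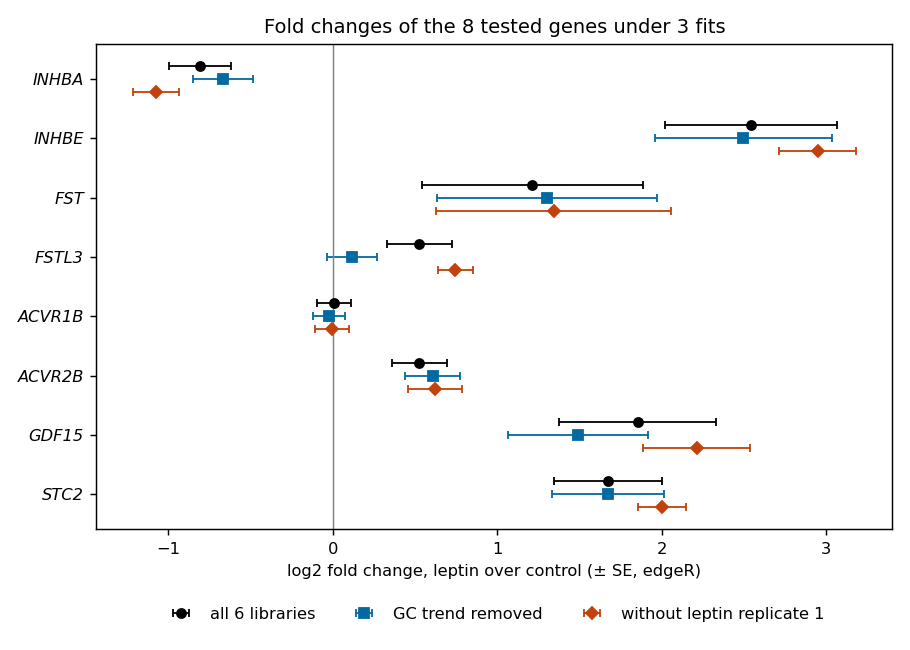
Log2 fold change of leptin over control with its SE for the 8 tested genes, from edgeR fits on all 6 libraries (black circles), after removal of the GC trend (blue squares) and without leptin replicate 1 (orange diamonds). INHBE, GDF15 and STC2 lie well right of 0 and INHBA left of 0 in each fit; FSTL3 moves to 0.12 with the GC trend removed, and ACVR1B lies near 0 throughout.

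Among the hormones, STC2 was higher with leptin, GDF15 had a larger fitted change with a wider error, and FGF21 was not detected. STC2 encodes stanniocalcin 2, a secreted glycoprotein that inhibits the protease PAPPA and thereby limits release of IGFs from their binding proteins. It had 188, 456 and 454 counts in leptin replicates 1, 2 and 3, against 145, 118 and 106 in controls, or 10.8, 30.5 and 27.0 CPM with leptin and 7.64, 7.33 and 6.36 CPM in controls. The groups did not overlap, and leptin replicate 1 again lay nearest the controls. The fitted change was 3.19-fold (log2 fold change 1.67 ± 0.33, SE), between 2.65-fold and 4.002-fold when a library was left out, the highest without leptin replicate 1. After removal of the GC trend its log2 fold change was 1.67 ± 0.34 (SE).

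GDF15 encodes a stress hormone that lowers food intake through its receptor in the brainstem. It had 1650, 3389 and 5931 counts in leptin replicates 1, 2 and 3, against 1092, 1362 and 739 in controls, or 95.1, 226 and 352 CPM with leptin and 57.6, 84.6 and 44.4 CPM in controls. All leptin libraries were above all controls, and the leptin libraries spread widely among themselves (mean 225 ± 129 CPM, beside 62.2 ± 20.5 CPM in controls, n = 3 each). GDF15 missed the threshold, at a log2 fold change of 1.85 ± 0.47 (SE; edgeR adjusted p = 0.0558). It passed without leptin replicate 1 (2.21, edgeR adjusted p = 0.00661), with DESeq2 (adjusted p = 0.0099) and when genes under a mean CPM of 1 were left out (edgeR adjusted p = 0.0395), and with the GC trend removed it was 1.49 ± 0.43 (SE; edgeR adjusted p = 0.1004). GDF15 has 62.9% GC, in the richest of the GC groups.

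FGF21 encodes a hormone of fasting and mitochondrial stress that acts on fat and brain, and it had 0 counts in all 6 libraries. With 3 counts as the limit of a count of 0, this allows up to 0.173 to 0.200 CPM with leptin and up to 0.158 to 0.186 CPM in controls, a limit that covers counting error only. No fold change can be given.

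Promoter sequences from RefSeq (GRCh38.p14) matched 8 of the 10 genes; INHBE and ACVR1B were not matched and not searched. The 250 bases upstream of the RefSeq start were searched on both strands for the C/EBP-ATF composite element TGATGNAA, at which ATF4 can bind, for the cAMP response element TGACGTCA, for the endoplasmic reticulum stress element (ERSE) and for the SMAD-binding element CAGACA. In all 35116 windows of that length these were found in 3.14%, 1.65%, 0.074% and 13.6%. Of the 8 searched genes, 1 window held the composite element, that of FGF21, and 0 held any of the others. Shown are FGF21 (chr19:48755274-48755523, plus strand), whose match starts 54 bases before the RefSeq start and is in capitals, and, as windows without a match from genes that changed, STC2 (chr5:173328448-173328664, minus strand, cut where the exons of the deposited tables begin) and INHBA (chr7:41703091-41703340, minus strand), each 5′ to 3′ on the gene's strand.
FGF21: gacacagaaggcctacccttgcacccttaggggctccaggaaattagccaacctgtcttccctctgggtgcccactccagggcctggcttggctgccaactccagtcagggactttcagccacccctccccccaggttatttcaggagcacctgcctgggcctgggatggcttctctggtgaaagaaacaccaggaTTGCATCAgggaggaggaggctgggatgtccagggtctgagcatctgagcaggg
STC2: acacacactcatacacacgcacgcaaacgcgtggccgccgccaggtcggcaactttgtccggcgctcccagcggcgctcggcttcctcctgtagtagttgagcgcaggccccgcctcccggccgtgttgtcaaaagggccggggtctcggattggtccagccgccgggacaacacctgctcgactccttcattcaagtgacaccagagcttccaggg
INHBA: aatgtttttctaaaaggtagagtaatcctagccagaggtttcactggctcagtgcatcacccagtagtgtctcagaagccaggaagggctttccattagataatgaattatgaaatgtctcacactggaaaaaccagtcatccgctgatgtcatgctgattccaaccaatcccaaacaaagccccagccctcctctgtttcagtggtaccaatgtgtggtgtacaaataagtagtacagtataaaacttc
The windows of STC2 and INHBA hold none of these motifs, and INHBE was not searched. The windows of INHBA and GDF15 lie inside the gene spans of the deposited tables (chr7:41667168-41705834 and chr19:18374731-18389176), downstream of the first start annotated there. Whether the windows are the promoters of the counted transcripts was not tested. A match is a description of the sequence and not a bound site, and the search did not reach beyond these windows.

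Regulators of the stress response that act on these hormone genes were read from a list of 22, of which 21 were tested. Of these, 6 were higher with leptin and 0 lower (edgeR), beside 5.71% and 4.09% of all tested genes. The groups did not overlap for 9 genes higher and 4 lower, beside 16% and 16.2% of all tested genes. The median log2 fold change was 0.24. This list too was written with earlier results of these data known, so nothing is read from these counts. ATF4, the central transcription factor, had 606, 754 and 860 CPM in leptin replicates 1, 2 and 3, against 440, 494 and 459 CPM in controls, and rose by a log2 fold change of 0.67 ± 0.14 (SE; edgeR adjusted p = 0.0166). DDIT3, the CHOP gene that ATF4 induces, had 36.4, 74.9 and 105 CPM with leptin and 22.9, 25.2 and 18.5 CPM in controls, and rose by 1.70 ± 0.35 (SE, log2; edgeR adjusted p = 0.0252). PPP1R15A, whose GADD34 protein recruits a phosphatase to eIF2 and so ends the response, had 96.3, 217 and 225 CPM with leptin and 51.6, 64.4 and 56.0 CPM in controls (log2 fold change 1.65 ± 0.29, SE; edgeR adjusted p = 0.0142). In all of these genes the leptin libraries lay above the controls, with leptin replicate 1 the lowest of them.

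TRIB3, a pseudokinase gene downstream of ATF4 and CHOP, averaged 930 ± 420 CPM with leptin and 334 ± 42.8 CPM in controls (log2 fold change 1.48 ± 0.33, SE; edgeR adjusted p = 0.0306). ATF3, a stress-induced repressor, averaged 6.59 ± 3.05 CPM with leptin and 2.38 ± 0.275 CPM in controls (edgeR adjusted p = 0.0278). CEBPB, a C/EBP transcription factor gene, averaged 309 ± 97.0 CPM with leptin and 188 ± 17.1 CPM in controls (edgeR adjusted p = 0.0411). The genes of the 4 kinases that phosphorylate eIF2, EIF2AK1 to EIF2AK4, were among the 15 that did not pass, with log2 fold changes between -0.44 and -0.02. The list depended on single libraries: 12 genes passed without leptin replicate 1 (9 higher, 3 lower), where 29.6% of all tested genes did. It was 1 gene each without leptin replicate 2 (4.84% of all genes), leptin replicate 3 (1.66%) and Control replicate 2 (2.25%), and 0 without Control replicate 1 (0.711%) or Control replicate 3 (1.05%). With limma-voom 3 genes were higher, where 8.45% of all tested genes passed in either direction. With the GC trend removed 5 were higher, where 5.53% of all tested genes passed. ATF4, DDIT3, ATF3 and PPP1R15A passed again, CEBPG was added (edgeR adjusted p = 0.0491), and CEBPB and TRIB3 were lost (edgeR adjusted p = 0.289 and 0.0562).

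**Figure D4:**
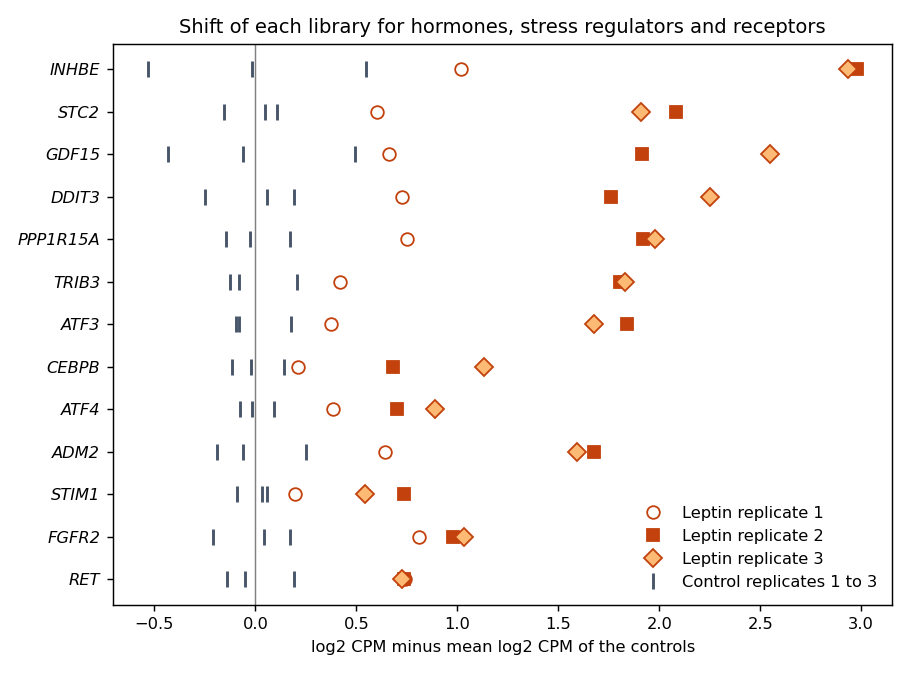
Log2 CPM of each library minus the mean log2 CPM of the 3 controls. Shown are INHBE, STC2 and GDF15, the 6 stress regulators that passed and the 4 genes of the receptor and partner list that passed, ADM2 among them. Markers of 3 kinds are the leptin replicates and vertical ticks the controls. For INHBE the leptin replicates lie at 1.02, 2.98 and 2.94, for STC2 at 0.60, 2.09 and 1.91 and for RET at 0.74, 0.73 and 0.73.

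Receptors and partners of the hormones, with further genes of secreted factors such as ADM2, formed a list of 18 genes. Of the 11 tested, 4 were higher with leptin and 0 lower (edgeR), beside 5.71% and 4.09% of all tested genes. The 4 include ADM2, which is neither a receptor nor a partner of these hormones. The median log2 fold change of the list was 0.38. It was written with earlier results of these data known, so nothing is read from these counts. GFRAL, the receptor that binds GDF15, had 0 counts in all libraries. RET, the kinase with which GFRAL signals and which also serves other ligands, had 14.8, 14.7 and 14.6 CPM in leptin replicates 1, 2 and 3, against 7.96, 10.1 and 8.46 CPM in controls, and rose by 0.74 ± 0.15 (SE, log2; edgeR adjusted p = 0.0157). For RET, leptin replicate 1 lay with the other leptin libraries, and its shift from the controls was 0.74, beside 0.73 in each of leptin replicates 2 and 3. KLB, the co-receptor on which FGF21 depends, had 3, 2 and 4 counts with leptin and 8, 3 and 9 in controls and was not tested.

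Of the FGF receptor genes, FGFR2 alone passed, with 5.59, 6.28 and 6.53 CPM with leptin and 2.69, 3.23 and 3.54 CPM in controls (log2 fold change 0.96 ± 0.22, SE; edgeR adjusted p = 0.0223). FGFR1, FGFR3 and FGFR4 also lay higher in all leptin libraries than in any control, as did 16% of all tested genes. Their log2 fold changes were 0.22, 0.27 and 0.36, and they missed the threshold (edgeR adjusted p = 0.188, 0.214 and 0.0505). With the GC trend removed these changes were 0.22, -0.02 and 0.02. ADM2, a stress-induced peptide hormone gene of the calcitonin family, had 56.5, 116 and 109 CPM with leptin and 34.7, 43.0 and 31.7 CPM in controls (log2 fold change 1.36 ± 0.25, SE; edgeR adjusted p = 0.0127). STIM1, a calcium sensor of the endoplasmic reticulum, averaged 181 ± 33.4 CPM with leptin and 127 ± 6.93 CPM in controls (edgeR adjusted p = 0.0427). STC1, the paralogue of STC2, had 9.57, 1.40 and 3.27 CPM in leptin replicates 1, 2 and 3, against 10.9, 8.32 and 8.34 CPM in controls, a log2 fold change of -0.94 ± 0.54 (SE) that did not pass (edgeR adjusted p = 0.307); it was named after its values were seen. Without leptin replicate 1, STC1 passed as lower (log2 fold change -1.97, edgeR adjusted p = 0.000102). FAP, whose protease inactivates FGF21 and which was likewise named afterwards, had 0 counts in each leptin library and 7, 4 and 8 in controls. Of the 4 calls, RET kept its own in 3 of 6 leave-outs, ADM2 in 2, and FGFR2 and STIM1 in 1 each, while with the GC trend removed STIM1 lost its call (edgeR adjusted p = 0.108).

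Levels per length put the 10 genes in a wide order. With leptin, FSTL3 (138 ± 41.2 RPKM) and GDF15 (108 ± 61.6) came first with overlapping libraries, then ACVR1B (7.97 ± 0.150), then STC2 (4.496 ± 2.07), INHBE (4.29 ± 2.45) and INHBA (2.15 ± 0.609), whose libraries overlapped. ACVR2B (0.878 ± 0.166), FST (0.316 ± 0.105) and INHBB (0.095 ± 0.048) followed without overlap. In controls FSTL3 (96.1 ± 10.8 RPKM) lay above GDF15 (29.8 ± 9.83), ACVR1B (7.93 ± 0.416), INHBA (3.76 ± 0.504) and STC2 (1.40 ± 0.132), all without overlap. INHBE (0.735 ± 0.286) and ACVR2B (0.609 ± 0.017) overlapped there, as did FST (0.134 ± 0.135) and INHBB (0.029 ± 0.017).

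The genes most like INHBE and STC2 were taken as those with the smallest root mean square difference of mean-centred log2 CPM over the 6 libraries, among 12336 other protein-coding genes with a mean of at least 1 CPM. For INHBE these were ZNF853 (0.35), INSYN1 (0.36), GDF15 (0.38), ITPKA (0.39) and LMF1 (0.40), beside a median of 1.37 over all compared genes, so GDF15 ranked 3. For STC2 they were VPS37D (0.10), NAT8L (0.11), FBLL1 (0.13) and RCOR2 (0.13), beside a median of 0.91, while GDF15 ranked 97 and INHBE 367. NAT8L, of N-acetylaspartate synthesis, had 44.05, 103 and 100.8 CPM in leptin replicates 1, 2 and 3, against 27.4, 29.8 and 21.2 CPM in controls. All 6 libraries enter this measure, so it largely repeats the difference between the groups and the position of leptin replicate 1. As these are bulk libraries, a change in the number of cells with a transcript and a change in its level per cell cannot be told apart.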

How the data were processed

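The deposited tables, 1 for each library, hold raw counts of read pairs for every gene. Counting over exons was done by the authors with featureCounts 2.0.1 and GENCODE release 44, per the file headers, with no strand option and without options for multi-mapping or overlapping assignment. HISAT2 2.0.5, featureCounts 1.5.0-p3, DESeq2 and the build hg38 are named in the submitters' processing notes. The deposited exon length per gene, in another column, served for RPKM. All 62700 IDs matched a symbol; columns of per-sample values left unused numbered 0.

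Members and lists were chosen with earlier results of these data known. Counts were tested in R 4.3.3 with edgeR 4.0.16 (filterByExpr, minimum count 10 and total 15; TMM; robust quasi-likelihood; Benjamini-Hochberg; threshold 0.05). SE is implied by fold change and F statistic. Log2 CPM used a prior count of 2. The GC trend (lowess, span 0.3, on the longest GENCODE 29 transcript; GC known for 97.2% of tested genes) was removed as offsets. Other alternatives were DESeq2 1.42.0, limma-voom (limma 3.58.1), other scalings, filters and thresholds, a block for replicate number and the omission of each library in turn. The counts of same-group libraries differed beyond sampling noise. Chi-square values per gene were 19.2 to 45.4 for leptin pairs, the lowest for leptin replicates 2 and 3, and 5.24 to 5.61 for control pairs. The median SD of log2 CPM over tested genes was 0.238 with leptin and 0.122 in controls, while the edgeR fit used a dispersion shared by both groups. The rule for named genes took all members, list genes past the threshold, and ACVR2A, SMAD2, SMAD3, SMAD4, ATF4, DDIT3 and INHBC. Outside that rule BAMBI, STC1, FAP, INHA, GFRAL, KLB, FGFR1, FGFR3, FGFR4, CEBPG, EIF2AK1 to EIF2AK4 and the marker genes were named after their values were seen. Some genes that the rule for likeness or the lists would name are not reported here.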

Additional observations from a re-analysis of the deposited data

How the results depend on the processing

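Over the 6 leave-outs of a library, genes changed ranged from 115 to 4761, calls among the 10 members from 0 to 6, and list genes called from 0 to 4 (activin pathway), 0 to 12 (stress regulators) and 0 to 6 (hormone receptors and partners). The highest value in each came without leptin replicate 1, where 29.6% of tested genes passed; each leave-out has less power, and the cause was not tested. The 1538 genes changed became 2437 with no filter on low counts, 868 with the GC trend removed, 942 with the GC trend removed and a replicate block, and 274 at an adjusted p under 0.01. The 3 member calls became 5 with DESeq2 (14.6% of all tested genes), 1 with limma-voom (8.45%) and 0 at 0.01 (1.75%). The activin pathway list, with 0 calls, had 2 with DESeq2 (14.6%), 1 with library totals only (9.59%), 2 with no filter (7.42%) and 1 with the replicate block (8.31%). The 6 stress regulator calls became 3 with limma-voom (8.45%) and 0 at 0.01 (1.75%), and the 4 calls of the receptor and partner list 0 at 0.01. ACVR1B changed sign with library totals only (-0.0375), a mean CPM of at least 1 (-0.00097), the GC trend removed (-0.0232), the GC trend removed with the block (-0.0226), and without leptin replicate 1 (-0.0036), leptin replicate 3 (-0.0098) and Control replicate 1 (-0.0352), within a leave-out range of -0.0352 to 0.0331. No other member changed sign in any alternative; of 119 member values, 88 kept side and direction. Pairing of the libraries by replicate number was not seen (correlations of deviations -0.049, 0.015 and -0.109 for numbers 1, 2 and 3). With deviations taken within groups of 3, these values cannot exclude it. With the replicate block 1303 genes passed, and 3 members. INHBB, FGF21 and FST levels are limited by depth.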
